A study of Arabidopsis thaliana with 12 samples.

Results

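The salt response of leaves that overexpress ERF34 was described as 3 libraries from NaCl-treated overexpressor leaves against 3 libraries from mock overexpressor leaves, which are 6 of the 12 Arabidopsis thaliana mRNA libraries of the series, across all 33597 named genes of the deposited count table. ERF34 (AT2G44940) encodes an AP2/ERF transcription factor, whose DREB subfamily includes factors that respond to drought and cold. The overexpressor is line #1, the single transgenic line sequenced, and it carries the ERF34 coding sequence with GFP at the N-terminus behind the CsVMV promoter in the Col background, so every overexpressor library, mock included, carries this transgene. The remaining 6 libraries are wild-type Col leaves under the same treatments. For the salt treatment, leaves were taken off at 16 DAE (a term the labels leave unexplained) and kept floating on MES buffer (3 mM, pH 5.8) containing NaCl at 100 mM for 1 day, at 22 °C in days of 16 h light. Rosette leaves 3 and 4 were sampled for every library, and the leaf age of 16 DAE is recorded for the mock libraries too. The labels do not say if mock leaves were handled in the same way, so salt cannot be told apart from detachment and floating in the contrast called salt below. The series asks how ERF34 affects leaf senescence under salt.

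Salt lowers the water potential around leaf cells and, with time, loads them with sodium. Plant cells are known to answer with abscisic acid signalling, protective hydrophilic proteins, compatible solutes such as proline, and altered movement of potassium and sodium. Salt and wounding are also known to affect the hormones ethylene, jasmonate and salicylate, and prolonged salt brings on leaf senescence, in which chlorophyll and photosynthetic proteins are taken apart and their nitrogen is moved out.

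Total counts over named genes were 10425430 to 12704898 in the mock libraries and 11361715 to 12358362 in the salt libraries. A count of 0 in 1 library allows up to 0.236 to 0.288 CPM, taking 3 counts as the limit, and such limits cover counting error only. CPM is the unit of level used here and scales counts to a common library total. The 6 libraries were separated by treatment on the first principal component, which held 61.5% of the variance and gave mock scores of -69.3 to -42.8 and salt scores of 46.4 to 67. Salt replicate 1 stood apart from the other salt libraries on the second component (17.3% of the variance), at 63.1 against -30.5 and -19.6. It was the lowest of the 3 salt libraries for 45.1% of the 18886 genes tested. Among the 284 genes called at least 8-fold higher in salt it was the lowest for 254 genes (89.4%). Values without this library are given below beside the results it moves by more than 1.5 times.

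The transgene was expressed under both treatments. The 3 mock libraries held ERF34 at 998, 1073 and 1081 CPM, and the 3 salt libraries at 768, 1028 and 1006 CPM. The wild-type means were 8.82 ± 5.52 CPM (SD, n = 3) in mock and 13 ± 6.14 CPM (SD, n = 3) in salt. Salt against mock in the overexpressor had a log2 value of -0.17 (SE 0.463, adjusted p = 0.829), so no change in ERF34 was called. Leaf markers were present in every library. Summed levels of 5 mesophyll markers, such as the carbonic anhydrase gene CA1 and the Rubisco activase gene RCA, were 15854 to 16924 CPM in mock and 13084 to 16043 CPM in salt, and those of 9 vascular markers were 709 to 769 CPM in mock and 569 to 712 CPM in salt. Per gene, however, the vascular list had a median log2 of 0.86. In it 2 of 9 were called higher and 0 lower, against 9.72% and 8.55% of all genes tested. Summed levels of 7 guard cell and epidermis markers were 374 to 434 CPM in mock and 370 to 385 CPM in salt. In these and the mesophyll list 1 gene each was called lower and 0 higher: ANL2 (log2 -0.43, adjusted p = 0.0295) and RCA (log2 -0.53, adjusted p = 0.0409). Of 15 alternative fits, ANL2 lost its call in 7 and RCA in 8. The 11 markers of root, flower, meristem and seed summed to 10.2 to 13 CPM in mock and 9.85 to 13.3 CPM in salt, with STM, WUS and OLEO1 at 0 counts in all 6 libraries. Of these 11, 3 were tested and 1 was called higher: the petal and stamen gene PI, named after its value was seen, at 0, 0.195 and 0 CPM in mock and 0, 2.73 and 2.38 CPM in salt (adjusted p = 0.0406). Its groups overlapped. These are bulk samples, so fewer cells of a type and less RNA per cell cannot be told apart.

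Promoters of 4 genes that rose in salt are shown first, because the W-box was found more often among large rises than among all genes, and a motif tied to mitochondrial signals lay before an alternative oxidase gene. Each window is the 250 bases before the annotated gene start in RefSeq's TAIR10.1 assembly, read 5′ to 3′ on the strand of the gene, and no other annotated gene overlaps it. Capitals mark TTGAC or its reverse complement, the core of the W-box bound by WRKY factors, in WRKY30 (chr5:8154711-8154960, minus strand) and CRK31 (chr4:6967459-6967708, plus strand). In AOX1B (chr3:7903847-7904096, plus strand) and PGP11 (chr1:523286-523535, plus strand) capitals mark the mitochondrial dysfunction motif, searched as CTTGNNNNNCANG on both strands.
WRKY30: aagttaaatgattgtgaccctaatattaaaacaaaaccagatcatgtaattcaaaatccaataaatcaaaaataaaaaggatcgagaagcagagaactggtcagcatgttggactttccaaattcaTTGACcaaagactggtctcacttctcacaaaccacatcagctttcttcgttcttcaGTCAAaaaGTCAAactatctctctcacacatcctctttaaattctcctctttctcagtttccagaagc
CRK31: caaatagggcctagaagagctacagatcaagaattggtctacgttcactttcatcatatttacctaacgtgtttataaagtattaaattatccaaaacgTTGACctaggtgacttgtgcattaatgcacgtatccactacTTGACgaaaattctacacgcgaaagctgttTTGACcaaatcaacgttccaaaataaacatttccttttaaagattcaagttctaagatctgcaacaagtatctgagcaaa
AOX1B: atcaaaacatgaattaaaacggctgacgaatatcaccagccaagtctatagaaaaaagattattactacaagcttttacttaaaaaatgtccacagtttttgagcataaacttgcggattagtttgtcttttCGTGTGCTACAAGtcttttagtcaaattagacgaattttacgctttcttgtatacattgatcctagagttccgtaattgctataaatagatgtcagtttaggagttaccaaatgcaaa
PGP11: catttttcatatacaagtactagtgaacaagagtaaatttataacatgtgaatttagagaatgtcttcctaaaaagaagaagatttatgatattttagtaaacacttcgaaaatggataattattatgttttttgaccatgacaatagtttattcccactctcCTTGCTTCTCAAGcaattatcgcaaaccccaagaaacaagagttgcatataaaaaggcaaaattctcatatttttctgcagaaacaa
The windows of WRKY30 and CRK31 each held 3 W-box cores. The number differed among other genes that rose, with 3 in sks8 and LECRKA4.2, 1 in WRKY55 and CRK36, and 0 in WRKY59, ALD1, FMO1 and PR2. The windows of AOX1B and PGP11 each held 1 mitochondrial dysfunction motif. The windows of AOX1D, another alternative oxidase gene, and of the NAD(P)H dehydrogenase gene NDB4 held 0 of the latter motif, although both genes rose in salt.

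TTGAC, on either strand, was present in 45.4% of the windows of all 18290 tested protein-coding genes. It was present in 53% of the 1797 windows of genes called higher in salt, in 39.9% of the 1578 windows of genes called lower, in 65.8% of the 275 windows of genes at least 8-fold higher and in 56.7% of the 67 windows of genes at least 8-fold lower. The mitochondrial dysfunction motif was present in 1.44% of all windows, in 2.5% of those called higher and in 6.91% of those at least 8-fold higher, and in 1.46% of those called lower and 0% of the 67. It was added to the search after values had been seen. The abscisic acid response element core ACGTG was present in 23.7% of all windows in 24.8% of each of the higher and lower sets, and in 28% and 34.3% of the sets at least 8-fold higher and lower. The GCC box GCCGCC, bound by many ERF factors, was present in 2.02% of all windows, 1.5% of the higher set and 2.03% of the lower set, and in 1.82% and 7.46% of the sets at least 8-fold higher and lower. The dehydration-responsive element CCGAC, bound by DREB factors, was present in 13.1%, 12.4% and 11.2%, and in 10.2% and 7.46% of the sets at least 8-fold higher and lower. These shares are descriptions of letters in windows and were not tested, and no overlap among motifs was removed.

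Salt changed 3449 of 18886 genes tested (18.3%) at an adjusted p under 0.05 by edgeR's quasi-likelihood test, with 1835 higher and 1614 lower. The replicate number was taken as a possible pairing of these libraries, and with it as a block 5327 genes were called in the model of the 4 groups. Without salt replicate 1 the count was 2805, without mock replicate 1 it was 1519, without mock replicate 3 it was 1628 and without salt replicate 2 it was 2116. Rises were larger than falls: 494 genes rose and 152 fell by at least 4-fold, and 111 rose and 23 fell by at least 32-fold. Genes called higher took 4.89% to 5.22% of a mock library's counts and 10.6% to 11.7% of a salt library's counts. Genes called lower took at least 15.4% of each mock library's counts and at most 10.8% of each salt library's. The genes at least 8-fold higher took 0.0562% to 0.0629% of mock counts and 0.551% of counts in salt replicate 1, against 1.21% and 1.15% in the other salt libraries.

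**Figure D1:**
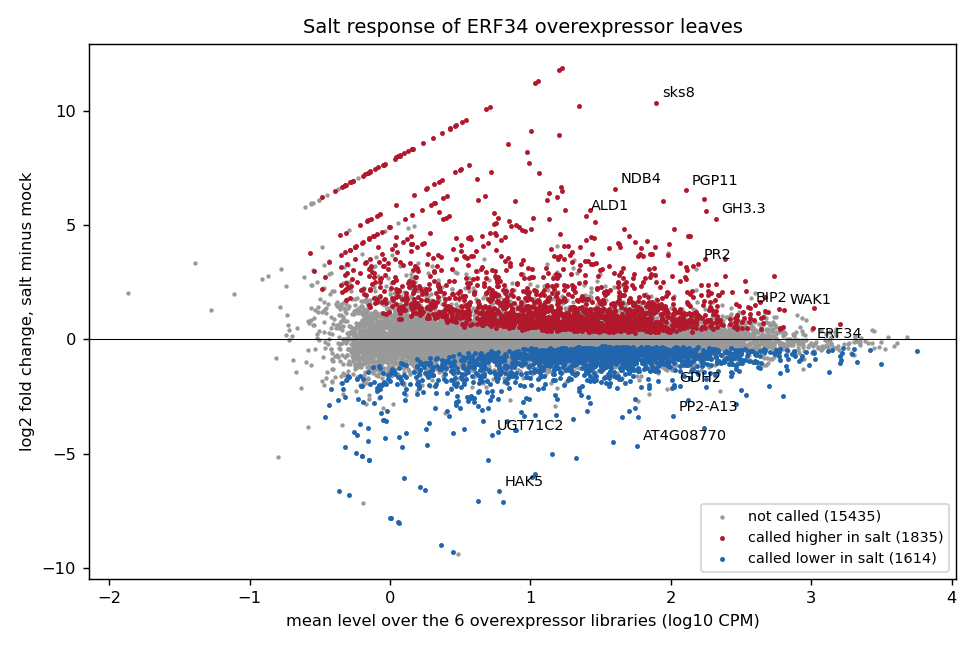
Log2 fold change of salt against mock overexpressor leaves for each tested gene (vertical axis) against its mean level over the 6 libraries (horizontal axis, log10 CPM), with genes called higher in red, called lower in blue and not called in grey. The 1835 red points reach further from 0 than the 1614 blue points, the straight upper edge at left holds genes with few or no mock counts, and 2 genes with no count in the 6 libraries are not drawn.

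Among called genes with a mean of at least 50 CPM in salt, the largest rise was in sks8 (AT1G21850, chr1:7667803-7670530), which encodes a protein similar to the skewed-growth protein SKU5. It stood at 0.23, 0 and 0.0788 CPM in mock and at 64, 184 and 224 CPM in salt (log2 10.37, SE 0.783, adjusted p = 0.000107, or log2 11.55 without mock replicate 1). Thus a gene close to its limit of detection in mock leaves was well expressed in each salt library. PGP11 (AT1G02520, chr1:523536-529069), an ABC transporter of the P-glycoprotein type, went from 3.83, 2.05 and 2.28 CPM to 104, 324 and 339 CPM (log2 6.54, SE 0.52, adjusted p = 0.000133). AT3G29250 (chr3:11193389-11195171), annotated as an NAD(P)-binding Rossmann-fold protein, went from 1.91, 3.9 and 1.97 CPM to 75.4, 243 and 203 CPM (log2 6.08, adjusted p = 0.000412). In each of these genes salt replicate 1 was the lowest of the salt libraries. The rule that named these genes required no overlap between salt and mock libraries.

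AT5G55150, annotated as an F-box SKIP23-like protein, rose from 3.51 to 11.5 CPM in mock to 159 to 468 CPM in salt (log2 5.64, adjusted p = 0.0014). AT3G13600, annotated as a calmodulin-binding protein, rose from 1.3 to 5.56 CPM to 41.1 to 115 CPM (log2 4.85, adjusted p = 0.00271, or log2 5.50 without mock replicate 2). The glutathione transferase gene GSTU9 (AT5G62480) rose from 8.27 to 13.9 CPM to 122 to 342 CPM (log2 4.55, SE 0.482, adjusted p = 0.000486). Of 41 glutathione transferases tested, which conjugate glutathione to reactive compounds, 6 rose and 3 fell, against 9.72% of all tested genes called higher and 8.55% called lower. Without mock replicate 1, salt replicate 2 or salt replicate 3 the 6 became 3, without mock replicate 3 the falls went from 3 to 1, as they did without salt replicate 2, and with the replicate block they were 5. The list median was -0.06 on the log2 scale, against 0.02 over all genes tested.

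Among called genes with a mean of at least 50 CPM in mock, the deepest fall was in AT4G08770 (chr4:5598037-5600398, minus strand), annotated as a peroxidase superfamily protein. It stood at 106, 113 and 114 CPM in mock and at 3.66, 4.13 and 5.41 CPM in salt, a 25.2-fold fall (log2 -4.65, SE 0.586, adjusted p = 0.00116). The replicates of each treatment were close and the groups were far apart. Its neighbour AT4G08780, also a peroxidase and named after its value was seen, had a log2 fold change of -4.09 (adjusted p = 0.0157), and how reads were divided between such similar genes is not given. AT4G12500 and AT4G12490, neighbours that encode lipid-transfer family proteins, went from 280 to 352 CPM to 12.8 to 32.8 CPM (log2 -3.86, adjusted p = 0.0042) and from 437 to 592 CPM to 57.7 to 92.3 CPM (log2 -2.84, adjusted p = 0.00284). The latter overlaps a gene on the other strand.

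AT5G41080, annotated as a phosphodiesterase of the phospholipase C type, went from 71, 98.2 and 53.4 CPM to 1.34, 6.69 and 1.97 CPM (log2 -4.49, adjusted p = 0.00204, or log2 -5.48 without salt replicate 2). PP2-A13, a phloem lectin-like protein whose gene overlaps another on the opposite strand, went from 160 to 224 CPM to 9.03 to 24 CPM (log2 -3.36, SE 0.437, adjusted p = 0.00132). AT5G18840, annotated as a transporter of the major facilitator type, went from 55 to 107 CPM to 3.77 to 14 CPM (log2 -3.39, adjusted p = 0.00656, or log2 -4.13 without salt replicate 1), and it overlaps a gene on the same strand. In this gene salt replicate 1 was the highest of the salt libraries. AT1G62480, annotated as similar to a vacuolar calcium-binding protein, went from 75.2 to 119 CPM to 4.33 to 14.5 CPM (log2 -3.15, adjusted p = 0.00336).

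SEN1, a gene known to rise in dark-treated and senescing leaves, went from 68.9, 154 and 95.4 CPM to 0.747, 19.4 and 10.3 CPM (log2 -3.39, SE 0.867, adjusted p = 0.0238). Its call was lost without salt replicate 3 (adjusted p = 0.066), mock replicate 2 (0.0527) or mock replicate 3 (0.0557), and without salt replicate 2 the log2 fold change was -4.27. AT1G15125, annotated as a methyltransferase and overlapping a gene on the same strand, went from 158 to 311 CPM to 4.93 to 70.3 CPM (log2 -2.65, adjusted p = 0.0329). That call was lost without salt replicate 3 (0.0883) or without mock replicate 1 (0.0583), 2 (0.0732) or 3 (0.0751), and the log2 fold change was -3.56 without salt replicate 2.

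**Figure D2:**
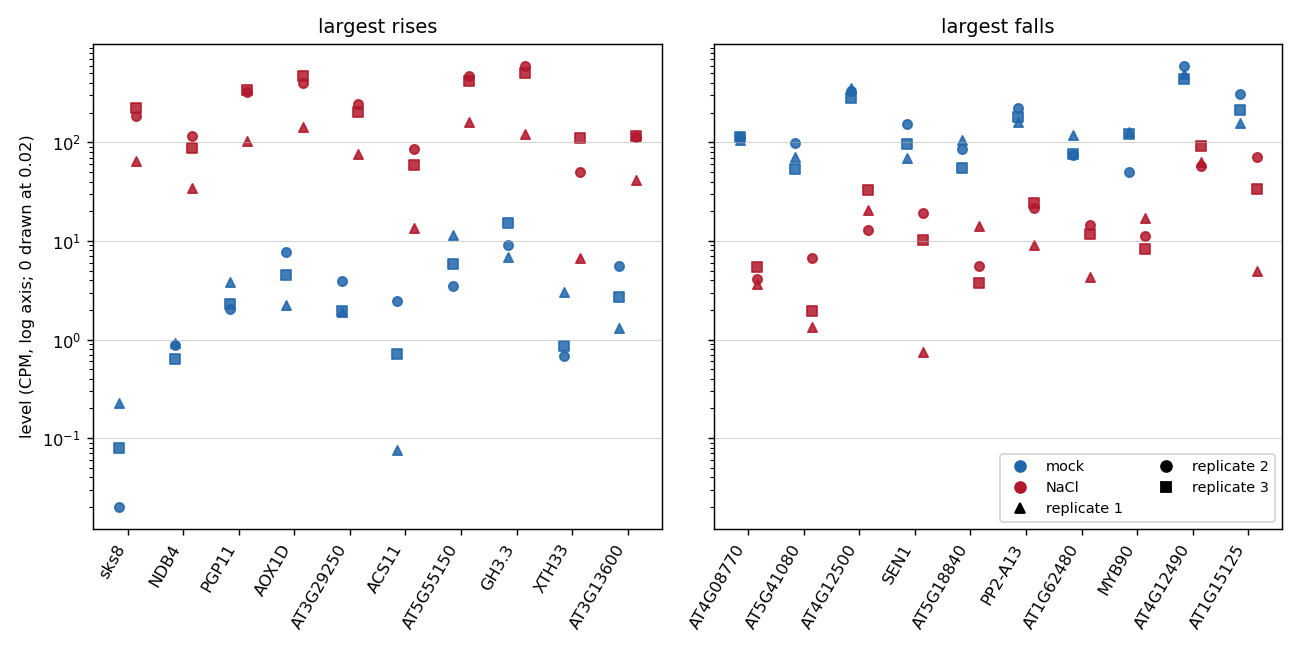
Level in each of the 6 overexpressor libraries (CPM, log axis, 0 drawn at 0.02) of the 10 largest rises and the 10 largest falls among called genes reaching 50 CPM without overlap between groups, with mock in blue, NaCl in red and replicates 1, 2 and 3 as triangles, circles and squares. In each of the 10 rises the lowest salt library is replicate 1, as in sks8 at 64 against 184 and 224 CPM.

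Genes of alternative respiration, which passes electrons around the proton-pumping complexes of mitochondria, rose in part. Of 12 tested members, 6 rose and 0 fell, with a median of 0.96, against 9.72% of all genes tested called higher. AOX1D, an alternative oxidase, went from 2.22, 7.71 and 4.57 CPM to 143, 404 and 471 CPM, or 70.8-fold higher (log2 6.15, SE 0.796, adjusted p = 0.00131). AOX1B had no count in any mock library and stood at 11.8, 44 and 44.2 CPM in salt, at least 389-fold higher against a limit of 3 counts over the mock group (adjusted p = 0.00294). NDB4, an external NAD(P)H dehydrogenase, went from 0.919, 0.878 and 0.63 CPM to 34.2, 115 and 87.3 CPM (log2 6.60, adjusted p = 0.0014). AOX1A, another alternative oxidase gene, was not called and is named after its value was seen, at 886, 492 and 631 CPM in mock and 329, 925 and 763 CPM in salt (log2 0.01, adjusted p = 0.995). Its groups overlapped, and salt replicate 1 was the lowest of all 6 libraries. Without mock replicate 1 the count of 6 became 3.

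Salicylate and pipecolate genes, which make and read the immune signals of these names, gave one of the higher shares of rises. Of 22 tested members 12 rose and 0 fell (median 1.71), against 9.72% of all genes tested called higher. Every salt library lay above every mock library for 14 of the 22, against 18.7% of all genes tested. ALD1, an aminotransferase of pipecolate synthesis, went from 0.689, 0.683 and 1.97 CPM to 29.7, 56.7 and 59.5 CPM (log2 5.42, adjusted p = 0.000187, or log2 6.13 without mock replicate 3). FMO1, which hydroxylates pipecolate, went from 2.22, 8.78 and 5.75 CPM to 48.6, 133 and 136 CPM (log2 4.26, adjusted p = 0.00179). PR2, a secreted glucanase, went from 17.5, 25.5 and 44.6 CPM to 332, 207 and 314 CPM (log2 3.28, adjusted p = 0.00181). For ALD1 and FMO1 salt replicate 1 was the lowest salt library, and for PR2 it was the highest. PR1, the secreted marker protein of salicylate signalling, was not called and is named after its value was seen, at 13.9, 101 and 60.2 CPM in mock and 115, 14.3 and 15.7 CPM in salt (adjusted p = 0.856). The salicylate receptor genes NPR1, NPR3 and NPR4 had log2 fold changes of 0.22, 0.02 and -0.13 (adjusted p from 0.315 to 0.974) and were also named after their values were seen. The count of 12 ranged from 10 to 12 over the fits that left out 1 of the 6 libraries.

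Receptor-like kinases and proteins at the cell surface were measured as families, beside 9.72% of all genes tested called higher and 8.55% lower. Of 38 cysteine-rich receptor-like kinases tested, 15 rose, 0 fell and 23 were not called (median 0.89). CRK36, which stood at 47.1, 28.2 and 40.9 CPM in mock, stood at 185, 609 and 559 CPM in salt (log2 3.54, SE 0.472, adjusted p = 0.0015). CRK37 went from 1.95 to 6.77 CPM to 36.3 to 108 CPM (log2 4.23, adjusted p = 0.000847), and CRK31 from 0.919 to 3.22 CPM to 8.44 to 36.3 CPM (log2 3.95, adjusted p = 0.00971, or log2 4.69 without mock replicate 2). These genes are close relatives, and how reads were divided between similar copies is not given. Salt replicate 1 was the lowest salt library for 30 of the 38 kinases. Of 47 receptor-like proteins, which lack the kinase domain, 15 rose, 3 fell and 29 were not called (median 0.53). RLP20 went from 2.3 to 3.07 CPM to 12.3 to 50.6 CPM (log2 3.69, adjusted p = 0.00666) and RLP24 from 0.23 to 1.17 CPM to 14.9 to 18.9 CPM (log2 4.79, adjusted p = 0.0011, or log2 5.54 without mock replicate 2). RLP22, which overlaps a gene on the opposite strand, went the other way, from 5.21 to 14.8 CPM to 0.88 to 1.23 CPM (log2 -3.0, adjusted p = 0.0109).

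In the list for pattern-triggered immunity 6 of 23 tested members rose and 0 fell, against 9.72% of all genes tested called higher. Without mock replicate 3 the rises were 3. WAK1, a wall-associated kinase that binds pectin, went from 371, 331 and 409 CPM to 1053, 873 and 801 CPM (log2 1.3, SE 0.139, adjusted p = 0.000481). FLS2, the receptor for bacterial flagellin, went from 66.1, 61.9 and 63.4 CPM to 103, 164 and 181 CPM (log2 1.23, SE 0.222, adjusted p = 0.00573), and it overlaps a gene on the opposite strand. The lectin receptor kinase LECRKA4.2 went from 5.85 to 11 CPM to 69.2 to 155 CPM (log2 3.65, adjusted p = 0.000888). The U-box ubiquitin ligase gene PUB54 went from 2.22 to 7.12 CPM to 35.3 to 65.6 CPM (log2 3.31, adjusted p = 0.00103). Of 21 tested U-box ligase genes 2 rose and 0 fell (median -0.03). The share called was 9.52%, against 18.3% of all genes tested.

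Growing cell walls are loosened by enzymes and by expansins. Over all genes tested 9.72% were called higher and 8.55% lower. Of 26 XTH genes tested, whose enzymes cut and rejoin xyloglucan, 12 rose, 0 fell and 14 were not called (median 2.38). The count was 14 with the replicate block, 10 without salt replicate 1, 9 without mock replicate 2, 7 without salt replicate 2, 6 without salt replicate 3 and 4 without mock replicate 1 or 3. XTH33 went from 3.06, 0.683 and 0.866 CPM to 6.65, 50.5 and 110 CPM (log2 5.14, SE 1.26, adjusted p = 0.0203). Its salt libraries differed widely from each other, and the call was lost without salt replicate 3 (adjusted p = 0.0521, log2 4.17) or without mock replicate 1 (0.0507, log2 6.13), 2 (0.0595) or 3 (0.0815). Of 15 expansins, which loosen walls without cutting them, 4 rose, 0 fell and 11 were not called (median 1.0), and 7 rose without salt replicate 1. EXPA10 went from 10.6, 11.4 and 16.5 CPM to 80, 67.5 and 65.8 CPM (log2 2.47, SE 0.265, adjusted p = 0.000491), with salt replicate 1 the highest. EXPA5 went from 4.65 to 6.05 CPM to 16.6 to 37.5 CPM (log2 2.21, adjusted p = 0.00632).

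Of 19 auxin genes tested, 8 rose and 0 fell (median 1.01), against 9.72% of all genes tested called higher. When single libraries were left out 7 to 9 rose. GH3.3, which conjugates auxin to amino acids, went from 6.81, 9.07 and 15.3 CPM to 121, 594 and 505 CPM (log2 5.29, SE 0.696, adjusted p = 0.0014). GH3.1 went from 0.0766, 0.195 and 0.394 CPM to 13.3, 16.7 and 15.7 CPM (log2 6.04, adjusted p = 0.000187, or log2 6.79 without mock replicate 3). IAA5, an early auxin-responsive repressor that overlaps a gene on the opposite strand, went from 0.39 to 0.842 CPM to 27 to 39.7 CPM (log2 5.69, adjusted p = 0.00021). The receptor gene TIR1 was not called (log2 0.30, adjusted p = 0.136) and was named after its value was seen.

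Other growth hormones gave fewer calls. Of 14 tested cytokinin genes 21.4% were called and of 13 gibberellin and brassinosteroid genes 15.4%, against 18.3% of all genes tested. In the latter list 1 rose and 1 fell. Those counts were 3 and 1 with the replicate block, 2 and 2 without salt replicate 1, and 2 and 1 without salt replicate 2. The cytokinin oxidase gene CKX6, whose enzyme breaks cytokinin down, went from 3.23 to 4.36 CPM to 9.94 to 13 CPM (log2 1.58, adjusted p = 0.0023), and 3 of 14 cytokinin genes rose. GA2OX2, which inactivates gibberellin, went from 2.65 ± 1.14 CPM (SD, n = 3) to 23.2 ± 5.62 CPM (SD, n = 3; log2 3.15, SE 0.319, adjusted p = 0.000388). DET2, an enzyme of brassinosteroid synthesis, fell from 16.2 to 19.9 CPM to 9.76 to 11.6 CPM (log2 -0.70, adjusted p = 0.00884). CKX6 and DET2 each overlap a gene on the opposite strand.

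Genes that fold proteins in the endoplasmic reticulum often rose, by less than the large changes above. Of 13 tested members 8 rose and 0 fell (median 0.98), against 9.72% of all genes tested called higher. The rises were 5 without salt replicate 1, 5 without mock replicate 2 and 4 without mock replicate 1. BIP2, an abundant Hsp70 chaperone of this compartment, went from 196, 191 and 219 CPM to 733, 462 and 387 CPM (log2 1.38, SE 0.266, adjusted p = 0.00726). SHD, its Hsp90, went from 272, 295 and 323 CPM to 896, 568 and 609 CPM (log2 1.22, adjusted p = 0.00433). TIN1, induced by tunicamycin, went from 3.75, 6.63 and 5.2 CPM to 26.5, 15.9 and 16.7 CPM (log2 1.93, adjusted p = 0.00262). In all of these, salt replicate 1 was the highest library, as it was for 10 of the 13 members. BIP1 and BIP2 are close copies, and how the counting divided their reads is not given.

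Abscisic acid is the main hormone of water shortage in leaves. Of 29 genes of abscisic acid synthesis and response, 4 rose and 3 fell (24.1% called, against 18.3% of all genes tested). Without salt replicate 1 or mock replicate 3 the counts were 3 and 0. They were 2 and 1 without salt replicate 2 or mock replicate 1, 2 and 2 without salt replicate 3, and 6 and 5 with the replicate block. NCED5, of hormone synthesis, went from 0.23, 0.0975 and 0.472 CPM to 14.1, 5.01 and 15.3 CPM (log2 5.34, SE 0.745, adjusted p = 0.00184, and 6.0 with mock replicate 3 left out). HAI2, a phosphatase that dampens the signal, went from 1.15, 1.56 and 1.34 CPM to 7.91, 7.3 and 5.58 CPM (log2 2.36, SE 0.267, adjusted p = 0.000636). In the dehydration and late embryogenesis list 3 of 16 rose and 0 fell although the median was 1.1, and 9 rose with the replicate block or without mock replicate 2. RD20, a caleosin, went from 2.6, 3.8 and 3.7 CPM to 8.36, 6.42 and 9.84 CPM (log2 1.29, SE 0.269, adjusted p = 0.01). RD29A stood at 68.7, 196 and 168 CPM in mock and at 393, 277 and 180 CPM in salt and was not called (adjusted p = 0.227). RD29B had 0.306, 0.78 and 0.394 CPM in mock libraries and 2.02, 1.06 and 1.39 CPM in salt libraries. Its log2 fold change of 1.62 missed the threshold (adjusted p = 0.0514) and passed it with the replicate block (0.048).

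In the osmolyte list 2 of 11 rose and 1 fell, with 1 rise without salt replicate 3 or any 1 mock replicate and 0 falls without mock replicate 1. P5CS1, which makes proline, went from 18.8, 24.9 and 18.3 CPM to 55, 50.8 and 85.5 CPM (log2 1.63, SE 0.321, adjusted p = 0.00836), and it overlaps a gene on the opposite strand. ERD5, a proline dehydrogenase, went from 1017, 725 and 658 CPM to 83.9, 291 and 204 CPM (log2 -2.05, SE 0.466, adjusted p = 0.0147, or 0.0528 without mock replicate 1). Of 26 ion transport genes, 2 rose and 3 fell, with 1 fall without salt replicate 2 or mock replicate 1 or 3 and 6 with the replicate block. The 19.2% of ion transport genes called was near the 18.3% of all genes tested, of which 9.72% were higher and 8.55% lower. HAK5, the high-affinity potassium transporter, went from 11.9, 13.7 and 9.84 CPM to 0.0747, 0.088 and 0.164 CPM (log2 -6.65, SE 0.483, adjusted p = 8.96e-05). Every salt library lay under the level that 3 counts would give. CAX3, a vacuolar calcium exchanger, went from 16.3 to 21.1 CPM to 99.4 to 127 CPM (log2 2.51, adjusted p = 0.00361), and SLAH3, an anion channel, from 29.8 to 40.9 CPM to 98.6 to 277 CPM (log2 2.56, adjusted p = 0.00485). Among 19 aquaporins 3 fell, including TIP2;2 of the vacuole, from 352 to 379 CPM to 142 to 210 CPM (log2 -1.09, SE 0.156, adjusted p = 0.00194), and 1 rose. The rises were 0 without mock replicate 1 or 3 and 2 without salt replicate 1 or with the replicate block.

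In the ethylene list 6 of 25 rose and 1 fell, with 2 falls without salt replicate 1 or 3 and with the replicate block. ACS2, which makes the ethylene precursor, went from 4.82, 8.78 and 5.59 CPM to 55.6, 149 and 179 CPM (log2 4.33, adjusted p = 0.00267), and ACS4 from 0.315 to 0.585 CPM to 8.44 to 12.7 CPM (log2 4.59, adjusted p = 0.0014). ACS11 went from 0.0766, 2.44 and 0.709 CPM to 13.6, 85.1 and 58.9 CPM (log2 5.69, SE 1.19, adjusted p = 0.0106). Its log2 fold change was 5.09 without mock replicate 1 and 7.04 without mock replicate 2, and its call was lost without mock replicate 3 (adjusted p = 0.051). In jasmonate synthesis 1 of 16 rose, and in jasmonate response 2 of 18 rose and 1 fell. These are 6.25% and 16.7% called, against 18.3% of all genes tested. The synthesis count was 0 without any 1 salt replicate or mock replicate 1 or 3, and 0 response genes rose or fell without mock replicate 1 or 3. In response, 1 rose without salt replicate 1, salt replicate 3 or mock replicate 2. VSP1, a vegetative storage protein induced by jasmonate, went from 0.0766, 0.878 and 0.551 CPM to 9.56, 5.28 and 3.77 CPM (log2 3.67, adjusted p = 0.0164), with log2 4.28 without mock replicate 2 and no call without mock replicate 1 (0.0647) or 3 (0.0599). HRE2, an ERF factor tied to low oxygen, went from 0.612, 0.0975 and 0.315 CPM to 19.2, 45.6 and 35.2 CPM (log2 6.51, SE 0.606, adjusted p = 0.000271, and 7.20 with mock replicate 1 left out).

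Carbon fixation and photorespiration genes gave one of the larger groups of falls. Of 27 tested members 13 fell and 0 rose (median -0.49), against 8.55% of all genes tested called lower. The falls were 8 without mock replicate 1 and 7 without mock replicate 3. Every salt library lay below every mock library for 20 of the 27, against 18.3% of all genes tested. GLDP1, a subunit of glycine decarboxylase in photorespiration, went from 4521, 3504 and 4794 CPM to 1521, 2113 and 2419 CPM (log2 -1.08, SE 0.196, adjusted p = 0.00573), and it overlaps a gene on the opposite strand. CP12-2, a small regulator of the Calvin cycle, went from 554, 451 and 530 CPM to 184, 272 and 312 CPM (log2 -1.0, SE 0.207, adjusted p = 0.00976). Salt replicate 1 was the lowest library in both. The Rubisco small subunit gene RBCS1A stood at 3290 to 3488 CPM in mock and 3542 to 3755 CPM in salt and was not called (log2 0.09, adjusted p = 0.622). It was named after its value was seen, and RBCS genes are near-identical copies. Of 40 antenna and photosystem genes 3 fell, under the share of all genes, and 0 rose (median -0.17). LHCB4.3, a minor antenna protein, went from 101, 73 and 114 CPM to 40.8, 35.1 and 45.1 CPM (log2 -1.25, SE 0.172, adjusted p = 0.00162). Without salt replicate 1 or 2 or mock replicate 2 or 3 the count of 3 became 1.

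Of chlorophyll synthesis genes 21.4% were called and of chlorophyll breakdown genes 30%, against 18.3% of all genes tested. In synthesis 3 of 14 rose and 0 fell, with 1 rise without salt replicate 1 or mock replicate 1 or 3 and 4 rises and 2 falls with the replicate block. HEMB1, an early enzyme of the pathway, went from 57.7, 78.7 and 56.9 CPM to 111, 134 and 134 CPM (log2 0.97, SE 0.163, adjusted p = 0.00417). In breakdown 3 of 10 fell and 0 rose, and 1 fell without mock replicate 1 or 3. ACD2, the reductase of red chlorophyll catabolite, went from 164, 138 and 169 CPM to 83.5, 92.3 and 110 CPM (log2 -0.72, SE 0.15, adjusted p = 0.0101), and it overlaps a gene on the same strand. Among 20 tested senescence genes 3 rose and 3 fell. The rises were 1 without mock replicate 1 or 3 and 5 with the replicate block, and the falls were 1 without salt replicate 3 or any 1 mock replicate. No call was made for the NAC regulator ORE1, at 22.2 to 38.9 CPM in mock and 14.1 to 24.6 CPM in salt (log2 -0.65, adjusted p = 0.303). NAP, a related regulator, was at 30.2 to 41.8 CPM in mock and 15.3 to 37.2 CPM in salt and had no call either (log2 -0.39, adjusted p = 0.51). WRKY6, a factor active in senescing leaves, went from 39, 51.8 and 34.4 CPM to 66.7, 117 and 136 CPM (log2 1.36, adjusted p = 0.0118, or 0.0539 without mock replicate 3). The late senescence gene SAG12 was at 0 counts in every one of the 6 libraries. SEN1, among the deep falls above, is the member of this list that fell furthest.

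In the main fit the calls among nitrogen and phosphate genes were all falls, and those among sulphur and iron genes all rises. Over all genes tested 9.72% were called higher and 8.55% lower, and the 12.5% of iron genes that rose was near that share. Of 17 nitrogen genes 5 fell and 0 rose (median -0.70), with 9 falls under the replicate block and 3 without mock replicate 1. GDH2, a glutamate dehydrogenase that releases ammonium, went from 149, 193 and 169 CPM to 29.8, 47.4 and 41.8 CPM (log2 -2.10, SE 0.403, adjusted p = 0.00746). NRT2.5, a nitrate transporter, went from 18.1, 11.7 and 25.8 CPM to 5, 3.25 and 4.1 CPM (log2 -2.17, adjusted p = 0.00382), and the glutamine synthetase gene GLN1;4 from 44.9 to 64.8 CPM to 9.63 to 24.8 CPM (log2 -1.57, adjusted p = 0.00611). Of 9 phosphate genes 4 fell and 0 rose, and 2 fell without salt replicate 3. PHT1;4, a phosphate transporter, went from 33.5, 16.6 and 33.4 CPM to 11.9, 3.96 and 5 CPM (log2 -1.99, adjusted p = 0.00722, or log2 -2.63 without salt replicate 1). Of 9 sulphur genes 2 rose and 0 fell, with 1 rise without salt replicate 1 or 3 or any 1 mock replicate. Of 8 iron genes 1 rose and 0 fell, with 0 rises without salt replicate 1 or mock replicate 1 or 3 and 2 without salt replicate 2. In the sugar starvation list 5 of 21 fell and 1 rose. The rises were 0 without salt replicate 2 or 3 or mock replicate 1 or 3, and with the replicate block 7 fell and 2 rose. The falls included MCCA, of leucine breakdown, from 47.3 to 48.7 CPM to 12.6 to 29 CPM (log2 -1.19, SE 0.275, adjusted p = 0.0155), which overlaps genes on the opposite strand. Of 19 sugar transport genes 3 fell and 0 rose, or 7 with the replicate block. SWEET12, a sucrose exporter of the phloem, went from 45.7, 73.6 and 47.4 CPM to 15.5, 22.7 and 13.9 CPM (log2 -1.68, adjusted p = 0.0148). Of 14 autophagy genes 3 fell and 0 rose, with 7 falls under the block, 5 without salt replicate 3 and 1 without mock replicate 1. ATG8I went from 44.4, 35.8 and 40.5 CPM to 22.2, 25.3 and 26.5 CPM (log2 -0.71, SE 0.135, adjusted p = 0.00708), and it overlaps a gene on the opposite strand.

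CYP71 cytochromes P450, many of which act in specialized metabolism, gave a large group of falls. Of 30 tested members 14 fell and 1 rose (median -0.58), against 8.55% of all genes tested called lower and 9.72% higher. Over the fits that left out 1 library 4 to 9 fell, with 4 without mock replicate 1, 6 without mock replicate 3, 7 without salt replicate 1 or 2, and 9 without salt replicate 3 or mock replicate 2. CYP71B22 went from 15.3, 19.1 and 24.3 CPM to 0.149, 2.9 and 2.95 CPM (log2 -3.31, SE 0.679, adjusted p = 0.00969). CYP71A25 went from 15.3, 11 and 10.5 CPM to 3.51, 3.69 and 2.95 CPM (log2 -1.86, SE 0.3, adjusted p = 0.00359). Several genes of this family are close copies. The glucosyltransferase gene UGT71C2 went from 14, 8.1 and 8.11 CPM to 0.597, 0.616 and 0.41 CPM (log2 -4.20, SE 0.371, adjusted p = 0.000187). PDR9, an ABC transporter that exports auxin precursors and phenolic compounds, went from 27.8, 26.6 and 29 CPM to 4.11, 2.82 and 1.39 CPM (log2 -3.31, SE 0.295, adjusted p = 0.000187).

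**Figure D3:**
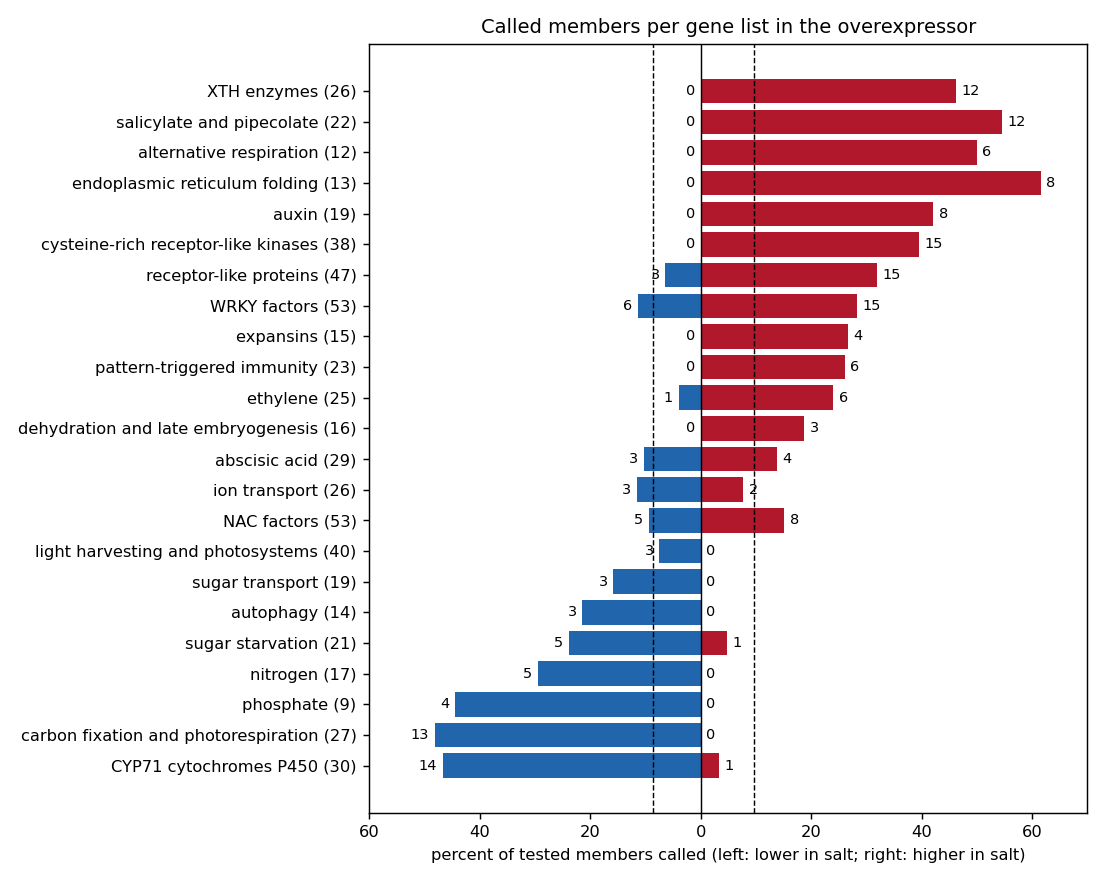
Percent of tested members called higher (red, right) and lower (blue, left) in salt for 23 gene lists, with the number tested in parentheses and the number called at each bar. Dashed lines mark the share of all tested genes called higher (9.72%) and lower (8.55%), and the XTH, salicylate and cysteine-rich receptor-like kinase lists pass the right-hand line with 0 falls.

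Among antioxidant genes 3 of 13 fell and 0 rose, against 8.55% of all genes tested called lower and 9.72% higher. The copper/zinc superoxide dismutase gene CSD1 went from 239, 183 and 214 CPM to 83.7, 94.6 and 106 CPM (log2 -1.16, SE 0.194, adjusted p = 0.00412), and it overlaps a gene on the opposite strand. APX1, the cytosolic ascorbate peroxidase, went from 783, 1027 and 821 CPM to 442, 536 and 460 CPM (log2 -0.87, SE 0.163, adjusted p = 0.00659). In both genes every salt library lay below every mock library, but the rule that named them required no overlap between these groups.

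Among transcription factors, the WRKY family had a larger share of rises than all genes tested, while the shares of NAC falls and of ERF rises and falls were near those of all genes (9.72% higher and 8.55% lower). Of 53 WRKY factors tested, which bind the W-box, 15 rose and 6 fell (median 0.49). Without mock replicate 3 the counts were 9 and 1, while 2 fell without salt replicate 1, salt replicate 2 or mock replicate 1 and 10 fell with the replicate block. WRKY30 went from 6.89, 7.22 and 7.4 CPM to 42.3, 142 and 162 CPM (log2 4.0, SE 0.722, adjusted p = 0.00587), and WRKY55 from 1.45 to 3.12 CPM to 18.1 to 42.9 CPM (log2 3.60, adjusted p = 0.0087). WRKY59 had 2 counts over the mock libraries and 183 over the salt libraries, a count ratio of 89.2 (95% counting interval 24.3 to 742). Of 53 NAC factors 8 rose and 5 fell, and the 8 became 7 without salt replicate 1, 5 without mock replicate 2, 3 without mock replicate 3 and 2 without mock replicate 1, salt replicate 2 or salt replicate 3. The 5 falls became 3 without salt replicate 1 or mock replicate 1 and 2 without mock replicate 2 or 3. Of 29 ERF factors 2 rose and 3 fell, with 7 falls under the replicate block and 1 rise without salt replicate 2 or mock replicate 1 or 3. DREB19, of the subfamily of ERF34, went from 0.765, 0.195 and 0.236 CPM to 6.72, 13.6 and 11.9 CPM (log2 4.67, adjusted p = 0.000498, or log2 5.56 without mock replicate 1), and it overlaps 3 genes on the opposite strand. RAP2.1, a repressor of the same subfamily, went from 9.37 to 11.8 CPM to 3.78 to 5.9 CPM (log2 -1.12, adjusted p = 0.00909). The heat shock factor HSFA2 went from 1.68, 4.1 and 2.13 CPM to 7.91, 27 and 17.7 CPM (log2 2.75, adjusted p = 0.00725).

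Salt replicate 1 differed from the other salt libraries in direction in the phenylpropanoid and flavonoid list. Of its 15 tested members, salt replicate 1 was the highest salt library for 14, and the list median against the mean of the mock libraries was 1.65 in replicate 1, -1.29 in replicate 2 and -0.96 in replicate 3. TT4, the chalcone synthase that starts flavonoid synthesis, stood at 112, 55.7 and 75.8 CPM in mock and at 578, 10.1 and 28.7 CPM in salt. DFR, a reductase of anthocyanin synthesis, stood at 17.8, 10.3 and 13.9 CPM in mock and at 217, 1.94 and 3.85 CPM in salt. Neither gene was called (adjusted p = 0.446 and 0.276), and both were named after their values were seen. Without salt replicate 1, 4 members fell and 0 rose, against 2 and 0 with it. With it 13.3% of members were called, beside 18.3% of all genes tested. MYB90, an activator of anthocyanin genes, fell from 126, 50.4 and 120 CPM to 17.2, 11.3 and 8.28 CPM (log2 -3.01, SE 0.678, adjusted p = 0.0143, or 0.0512 without salt replicate 2). The rule that named MYB90 required no overlap between salt and mock libraries.

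Other lists also ranked salt replicate 1 at one end. It was the lowest salt library for 14 of 14 autophagy genes, 19 of 20 senescence genes, 14 of 16 clock genes and 18 of 21 sugar starvation genes, and the highest for 7 of 7 ribosome biogenesis genes. The clock list median was -0.83 in replicate 1 and -0.04 in each of the others. Its part in these list medians was not tested.

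**Figure D4:**
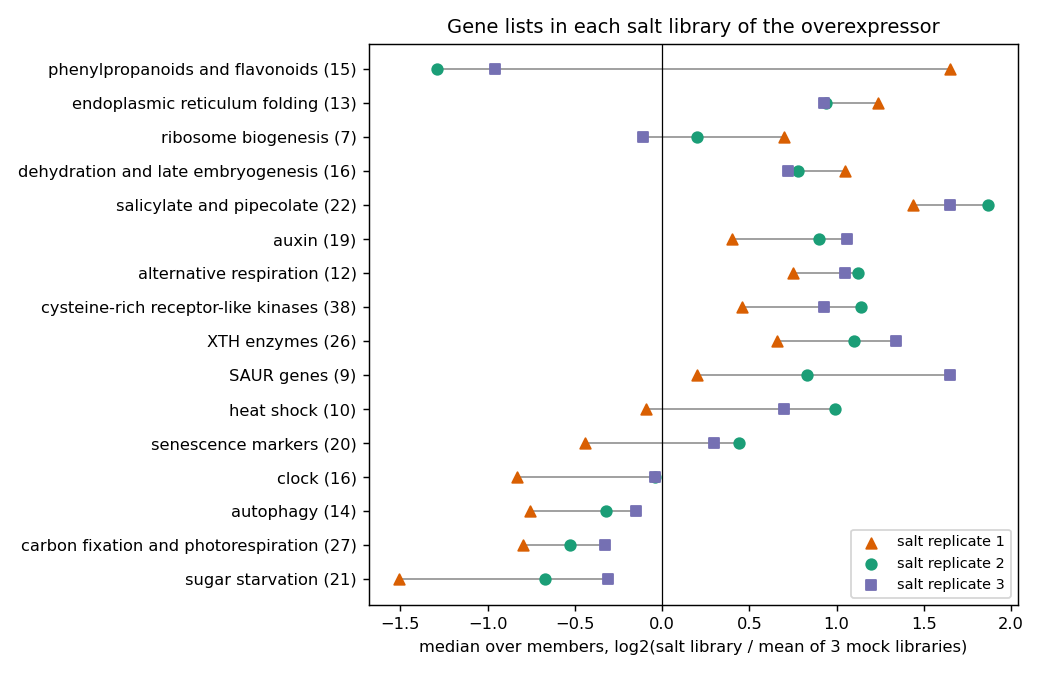
Median over the tested members of 16 gene lists of the log2 ratio of each salt library of the overexpressor to the mean of the 3 mock libraries (horizontal axis), with salt replicates 1, 2 and 3 as triangles, circles and squares and the number tested in parentheses. Replicate 1 lies above 0 for the flavonoid list (1.65) where replicates 2 and 3 lie below it (-1.29 and -0.96), and it is the lowest for auxin, XTH, heat shock, clock and autophagy lists.

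Wild-type leaves gave 7814 calls (41.4%) in the same model. Of the 3449 genes called in the overexpressor, 2997 (86.9%) were also called in wild type, which is 38.4% of the wild-type calls, and 2988 of these moved in the same direction. The contrasts share no library, but they share the estimate of spread. The difference between the responses was tested as the interaction of genotype and salt. No gene was called (0%, smallest adjusted p = 0.053), while 2580 genes (13.7%) had an unadjusted p under 0.05. DESeq2 called 659 genes, and edgeR called 379 with the replicate block and 73 without overexpressor salt replicate 1. Numbers of called genes in the genotypes therefore do not show by themselves that responses differed. Of light harvesting genes 31 of 40 fell in wild type against 3 in the overexpressor, with medians of -0.57 and -0.17, and the endoplasmic reticulum folding medians were 2.13 and 0.98. The interaction had an unadjusted p under 0.05 for 9 of these 40 genes and 10 of these 13.

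**Figure D5:**
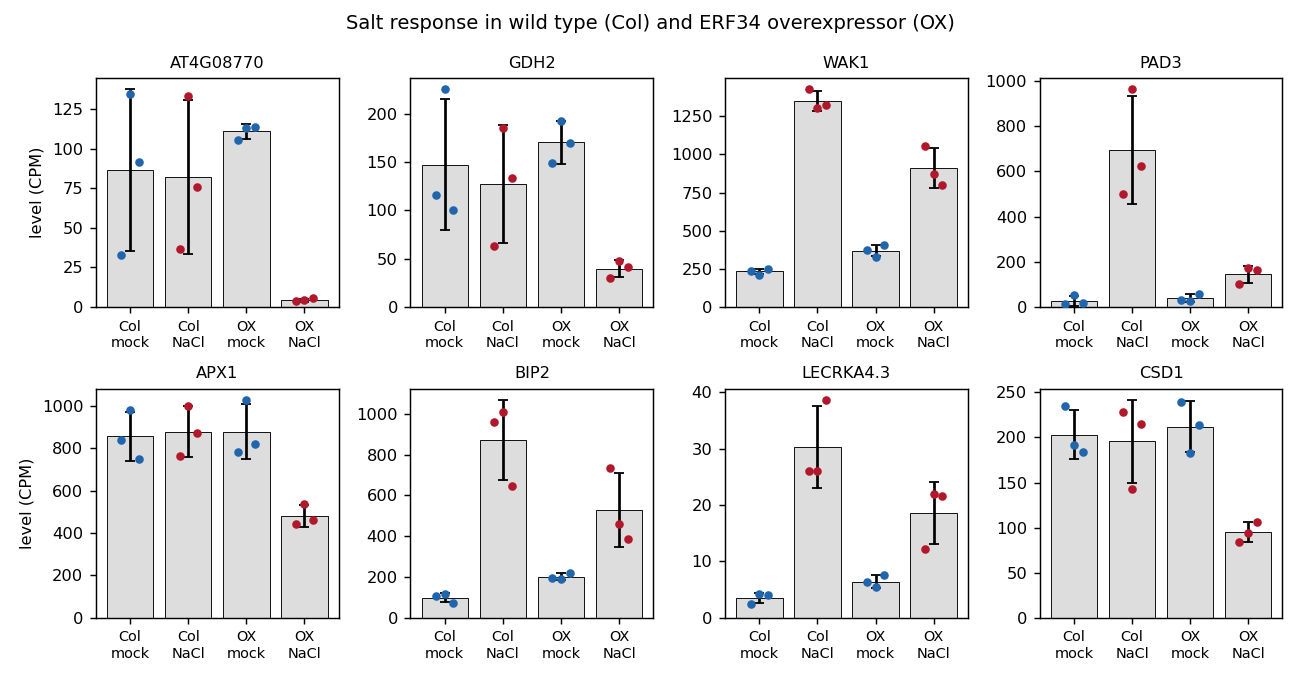
Level (CPM) of 8 genes in wild-type (Col) and overexpressor (OX) leaves under mock and NaCl, with bars at the mean, error bars at the SD and points for the 3 libraries of each group. The points of AT4G08770, GDH2, APX1 and CSD1 overlap between mock and NaCl in Col and are apart in OX, where AT4G08770 falls from 106 to 114 CPM to 3.66 to 5.41 CPM. The rule that named these genes required no overlap in OX and set no such condition in Col.

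AT4G08770 measured 32.7, 134.6 and 91.9 CPM in wild-type mock and 36.8, 133.4 and 76.1 CPM in wild-type salt (log2 -0.07, adjusted p = 0.918), beside a log2 fold change of -4.65 in the overexpressor (interaction -4.58, adjusted p = 0.0689). The wild-type libraries kept their order by replicate number under both treatments. For APX1 the log2 fold changes were 0.04 (wild type) and -0.87 (overexpressor) (interaction adjusted p = 0.123). CSD1 had -0.06 and -1.16 (0.118), and GDH2 had -0.21 and -2.10 (0.168). None of these differences was called in this fit. These genes had the larger response in the overexpressor, whereas among the 379 genes called with the replicate block 345 had the smaller response there.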

How the data were processed

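Poly(A) mRNA from 12 leaf libraries was sequenced as strand-specific libraries, per the labels' protocols, which call the replicates independent biological ones. TopHat, Cufflinks and the TAIR10 build are named in the submitters' processing notes, without versions or roles. Of the counting, the strand setting is not known here. The deposited table, which holds whole-number counts per gene, was used as the authors deposited it, and the TMM-normalized values were not used. From the counts, 33597 named genes were kept and 7 unnamed rows, with 0.382% to 0.897% of a library's counts, were left out. Symbols and positions came from RefSeq TAIR10.1, which matched 32835 genes.

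Genes passing edgeR's filterByExpr (18886) were fitted with TMM factors and the robust quasi-likelihood test (edgeR 4.0.16, R 4.3.3) in 1 model of 4 groups, with 8 residual degrees of freedom. Salt against mock in the overexpressor was the main contrast, the same contrast in wild type and the interaction were read beside it, and calls had a Benjamini-Hochberg adjusted p under 0.05 over all genes tested. Levels are CPM from TMM-scaled library sizes. The standard error of a log2 fold change is its size divided by the square root of the F statistic. Folds of genes with 3 or fewer mock counts were taken from the counts, with a 95% interval. Alternatives used DESeq2 1.42.0, limma 3.58.1, other factors, no filter, the 6 overexpressor libraries alone, a replicate block, and each overexpressor library left out.

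Replicate numbers come from the labels. Deviations of same-numbered mock and salt libraries of the overexpressor from their group means correlated at 0.132, 0.273 and 0.217. These correlations are weak, so the numbers were taken as a possible pairing and used only in the fits with a block.

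The genes named were ERF34 and 6 salt, dehydration and senescence genes, the 10 largest rises and falls among called genes with a mean of at least 50 CPM in the higher group and no overlap between groups, and up to 3 called members of each of 61 gene lists, by size of change, with at least 1 CPM and no overlap. Others are named as chosen after their values were seen. The members and lists were chosen with earlier results of these data known. The fit was tested on simulated data.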

Additional observations from a re-analysis of the deposited data

Results flagged for a closer look

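Responses to salt in overexpressor and wild type differed for 7 genes named by the rule, by the interaction test with the replicate number as a block, while none of the 7 was called without the block. The numbers were not shown to pair all groups: salt-treated libraries of the genotypes with number 2 correlated at -0.025. The other same-numbered pairs of libraries from different groups correlated at 0.102 to 0.73. Differences below are overexpressor minus wild type on the log2 scale, from edgeR's quasi-likelihood test with the block. AT4G08770 differed by -4.65 (adjusted p = 0.0218, against 0.0689 without the block). GDH2 differed by -1.89 (0.0373, against 0.168), and APX1 by -0.90 (0.0312, against 0.123). The wild-type libraries of these genes overlapped between mock and salt, while the rule that named them required no overlap in the overexpressor. WAK1 differed by -1.24 (0.0263, against 0.0689), PAD3 by -2.87 (0.0498, against 0.139), BIP2 by -1.83 (0.0312, against 0.091) and LECRKA4.3 by -1.60 (0.0343, against 0.124). AT4G08780, named after its value was seen, was also called with the block, at -4.24 (0.0316).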

How the results depend on the processing

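Over the 15 alternatives run, 93 of the 159 called genes named by the rule never lost their call, 66 lost it at least once and 0 reversed. The count of 3449 called genes became 2227 in a fit of the 6 overexpressor libraries alone (954 lower), 5327 with the replicate block (2777 higher and 2550 lower) and 2163 with the block in the 6 libraries alone (866 lower). Leaving out 1 library gave 1519 to 2836 calls, 826 to 1667 higher and 693 to 1366 lower. The interaction, with 0 calls, gave 379 with the replicate block, 659 by DESeq2, 5 with RLE factors, 8 with no filter, and 0 to 73 when 1 overexpressor library was left out, the 73 without salt replicate 1. RLE and upper quartile factors, no filter, DESeq2, limma-voom and the fit without robust shrinkage gave 3084 to 4374 calls for salt. With the block in the model of the 4 groups, CYP71A23 lost its call (adjusted p = 0.0502) and RD29B gained one (0.048). Among genes named by the rule the block in that model changed no other call of salt against mock in the overexpressor. With the block in the 6 libraries alone other calls were lost, such as those of ANL2, RCA and XTH33. The causes were not tested. The overexpressor groups held 3 libraries each, of 10425430 to 12704898 counts, which limits the precision for genes with few counts.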
